A study of Homo sapiens with 9 samples.

Results

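The SLC25 genes encode the mitochondrial carriers, the largest group of solute transporters in the inner mitochondrial membrane. The 48 genes described here are those of the table of 17492 genes whose symbol is SLC25A followed by a number. They were followed in HCCLM3, a highly metastatic human liver cancer cell line labelled as wild type. The 3 control samples had DMSO alone, 3 samples had 50 µM quercetin and 3 had 100 µM quercetin, and the series asks how this plant flavonol acts on hepatocellular carcinoma. All samples are of 1 cell line, and no source used here gives the length of the treatment. Messenger RNA was sequenced, and 40 of the 48 genes had enough counts to be tested. The labels do not say whether the samples of a group were grown as separate cultures. The p-values therefore rest on the spread between samples that may be technical repeats.

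Mitochondrial carriers are built from repeats of a short membrane domain and move metabolites, nucleotides, cofactors and phosphate across the inner membrane, mostly by exchange. In hepatocytes they connect the matrix with cytosolic fatty acid synthesis, gluconeogenesis, the urea cycle and the malate-aspartate shuttle, which passes reducing equivalents from cytosolic NADH into the matrix. The carriers are made in the cytosol and reach the inner membrane through the TOM and TIM22 import machinery.

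Each library held between 20061136 and 21599805 estimated counts, and over all tested genes the log2 fold changes had a median SE of 0.134. Control replicate 1 and 100 µM replicate 3 stood apart from the other libraries of their groups: the chi-square per gene was 27.6 and 27.4 between control replicate 1 and the other control libraries, against 3.56 between those 2, and 83.9 and 86.1 between 100 µM replicate 3 and the others at 100 µM, against 5.04. In 100 µM replicate 3, 9 of the 40 tested carrier genes (22.5%) lay more than 1.5-fold from the mean of the other libraries of the group, against 23.9% of all tested genes. These 9 were SLC25A26, SLC25A27, SLC25A30, SLC25A33, SLC25A35, SLC25A36, SLC25A37, SLC25A44 and SLC25A45, and no difference in them passed the test with all libraries. Without 100 µM replicate 3, SLC25A26 passed as higher and SLC25A30 and SLC25A45 as lower at 50 µM (36.6% of all genes passed). SLC25A37 then passed as lower at 100 µM against control (29.8% of all genes) and SLC25A45 as higher at 100 µM than at 50 µM (27.5%). In control replicate 1 the same held for SLC25A20, SLC25A25 and SLC25A27 (7.5%, against 12.2% of all genes). The summed hepatocyte markers ran from 4239 to 4449 CPM (read counts relative to the TMM-scaled library total) at 50 µM and from 3591 to 4997 CPM at 100 µM, against 4367 to 5267 CPM in control, with 7 of 11 markers at 1 CPM or more in every library. Most of that sum was KRT8 and KRT18, keratin genes that other epithelial cells also express, at 3126 and 981 CPM at 50 µM and 3188 and 971 CPM at 100 µM, against 3412 and 1322 CPM in control. ALB, the albumin gene, was low throughout and passed the test at both doses, at 8.83 ± 2.37 CPM at 50 µM and 10.5 ± 5.04 CPM at 100 µM, against 1.24 ± 0.706 CPM in control (SD, n = 3 each). TF and APOH were also higher at both doses (log2 fold changes 2.39 and 0.37 at 50 µM, 2.76 and 0.52 at 100 µM) and TTR at 100 µM (2.26), while APOB was lower at both doses (-2.31 at 50 µM, -1.87 at 100 µM) and SERPINA1 and HNF4A at 50 µM (-2.45 and -0.75). Summed leukocyte markers ran from 128 to 144 CPM at 50 µM and from 217 to 297 CPM at 100 µM, against 139 to 199 CPM in control, with 1 of 5 markers at 1 CPM or more in every library. Summed fibroblast markers ran from 84.2 to 97.6 CPM at 50 µM and from 86.3 to 155 CPM at 100 µM, against 72.8 to 115 CPM in control, and endothelial ones from 20 to 22.4 CPM at 50 µM and from 21.6 to 26.2 CPM at 100 µM, against 36.9 to 40.4 CPM in control. None of the markers was at 0 in all libraries. Their part in the results on the carriers was not tested. All samples are labelled as 1 cell line, so these sums give levels of marker genes and do not count cells of these types.

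Both doses were compared with the same control libraries. SLC25A29, a carrier of basic amino acids, SLC25A23, an ATP-Mg/phosphate carrier, and SLC25A1, the citrate carrier, passed the test at each dose and were higher than in control. SLC25A22, a glutamate carrier, and SLC25A38, a glycine carrier needed for haem synthesis, passed at each dose and were lower. The stretches of 250 bases that end just before their starts in RefSeq are shown because these are the members that passed at both doses. For SLC25A29 and SLC25A38 the RefSeq start lies inside the span that the authors' table gives for the gene. The stretches are RefSeq sequence on GRCh38.p14, read 5′ to 3′ on the strand of the gene, and the table held such a stretch for 40 of the 48 members. These 40 are not the 40 tested members, as they include SLC25A31, SLC25A34, SLC25A48 and SLC25A52, which were not tested. Capitals mark the GC box (GGGCGG), the CCAAT box (CCAAT) and the E-box (CACGTG) on either strand.
SLC25A29: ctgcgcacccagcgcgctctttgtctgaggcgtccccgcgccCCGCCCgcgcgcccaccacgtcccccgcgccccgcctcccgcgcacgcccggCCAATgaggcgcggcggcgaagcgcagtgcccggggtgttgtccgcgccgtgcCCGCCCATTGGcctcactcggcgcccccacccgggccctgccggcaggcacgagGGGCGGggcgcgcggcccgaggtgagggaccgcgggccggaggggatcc
SLC25A23: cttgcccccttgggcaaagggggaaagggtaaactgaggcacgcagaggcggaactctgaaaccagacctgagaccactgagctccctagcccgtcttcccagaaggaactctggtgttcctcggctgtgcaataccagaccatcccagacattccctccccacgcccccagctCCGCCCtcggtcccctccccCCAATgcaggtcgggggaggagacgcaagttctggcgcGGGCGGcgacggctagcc
SLC25A1: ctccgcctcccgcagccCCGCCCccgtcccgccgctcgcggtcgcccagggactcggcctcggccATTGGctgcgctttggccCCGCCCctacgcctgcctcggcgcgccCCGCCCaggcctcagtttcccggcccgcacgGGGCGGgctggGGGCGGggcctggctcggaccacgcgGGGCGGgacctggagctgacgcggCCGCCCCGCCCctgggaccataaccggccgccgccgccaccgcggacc
SLC25A22: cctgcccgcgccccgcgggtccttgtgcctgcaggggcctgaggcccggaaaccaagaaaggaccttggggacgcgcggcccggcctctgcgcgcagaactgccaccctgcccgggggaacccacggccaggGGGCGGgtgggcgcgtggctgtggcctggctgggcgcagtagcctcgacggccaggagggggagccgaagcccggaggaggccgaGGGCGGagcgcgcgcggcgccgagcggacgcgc
SLC25A38: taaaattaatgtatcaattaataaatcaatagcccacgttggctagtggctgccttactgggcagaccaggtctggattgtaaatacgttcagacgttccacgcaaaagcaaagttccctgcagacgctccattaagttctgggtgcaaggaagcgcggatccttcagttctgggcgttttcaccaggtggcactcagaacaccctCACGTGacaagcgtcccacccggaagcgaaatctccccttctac
The SLC25A1 stretch lies at chr22:19178737-19178986 on the minus strand, has 81.6% G and C, and holds 8 GC boxes, 1 of which overlaps another in part, and 1 CCAAT box. The SLC25A29 stretch (chr14:100306445-100306694, minus strand) holds 3 GC boxes and 2 CCAAT boxes, and the SLC25A23 stretch (chr19:6459793-6460042, minus strand) holds 2 GC boxes and 1 CCAAT box. The SLC25A22 stretch (chr11:798282-798531, minus strand) holds 2 GC boxes. The SLC25A38 stretch (chr3:39383120-39383369, plus strand) differs from the others in base composition, with 49.6% G and C and 1 E-box. The GC box was present in 28 of the 40 carrier promoters (70%), against 66.2% of the promoters of tested genes and 42.6% of all 35116 in the table. The CCAAT box was present in 45% of carrier promoters, against 35.1% of those of tested genes, and the E-box in 7 of 40 (17.5%), against 8.86%. The core of the hypoxia response element (ACGTG, contained in the E-box) was present in 27.5%, against 23.2%, and the sterol response element TCACNCCAC in 1 of 40 (2.5%), that of SLC25A40, against 0.867%. Motif matches describe letters in these windows and not binding.

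Levels of the carrier genes were compared per length, in TPM as the authors deposited them. SLC25A5, the ADP/ATP carrier of dividing cells, averaged 1243 TPM over the 9 libraries, stood at rank 115 of 17492 genes and made up 40.4% of the family total. SLC25A6, a further ADP/ATP carrier, followed with 353 TPM (11.5%), and SLC25A3, which imports phosphate for ATP synthesis, with 212 TPM. SLC25A6 lay above SLC25A3 in every library. These 3 genes held 58.8% of the family. SLC25A39, linked to the import of glutathione, averaged 199 TPM and SLC25A1 161 TPM. The means of SLC25A3 and SLC25A39 lay within their spread, with 232 ± 28.2 and 214 ± 5.54 TPM in control (SD, n = 3). In all, 5 members averaged at least 100 TPM, 30 at least 10 TPM and 36 at least 1 TPM. The heart and muscle form of the ADP/ATP carrier, SLC25A4, was at 11.3 TPM in control.

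**Figure D1:**
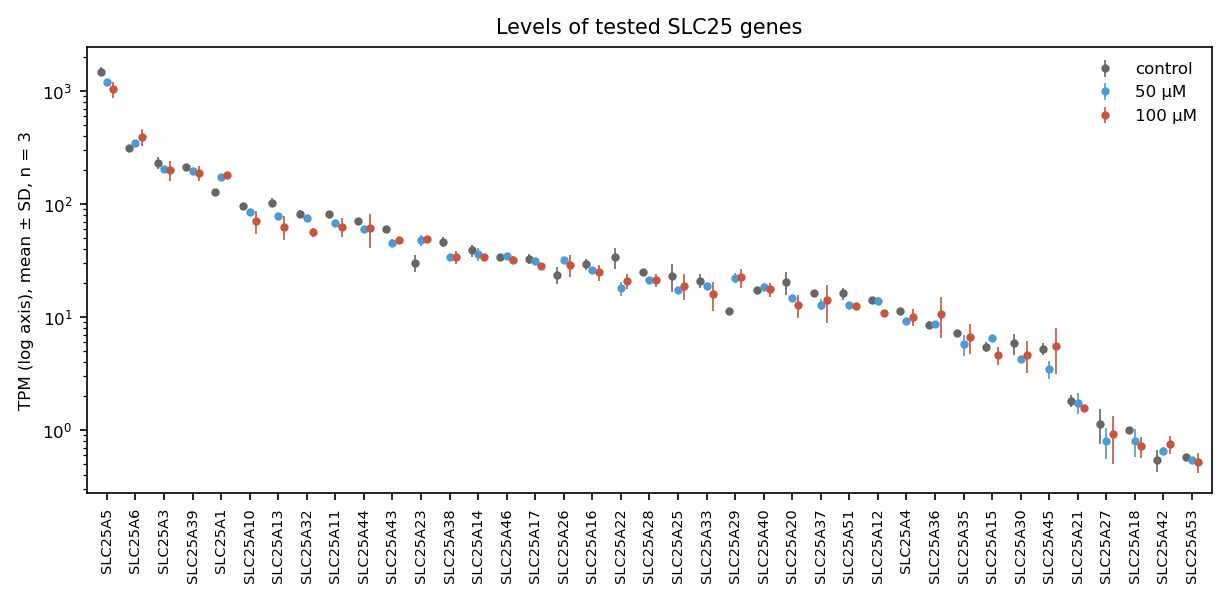
Mean TPM of 39 tested carrier genes on a log axis, ordered by their mean over all libraries, in control, at 50 µM and at 100 µM (points are means, bars are SD, n = 3). SLC25A5 stands above all others in each group, at 1489 TPM in control, 1198 TPM at 50 µM and 1042 TPM at 100 µM.

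The 8 members below the filter on low counts had at most 14.57 counts in any library. SLC25A31, the ADP/ATP carrier of testis, had 0 to 2 counts per library, and SLC25A48 had 0 to 1. SLC25A2, an ornithine carrier, and SLC25A24, an ATP-Mg/phosphate carrier, had 0 to 1 counts each, and SLC25A47 had 0 to 2. SLC25A24 is placed on a scaffold and not on a chromosome in the authors' table. SLC25A41 had 0 to 5.14 counts, SLC25A34 2.07 to 8.09 and SLC25A52, a close copy of the NAD carrier SLC25A51, 1.48 to 14.57. SLC25A51 and SLC25A52 share 28.5% and 29.3% of their 50-base words with other transcripts, each mainly with the other, so the split of their counts is uncertain.

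At 50 µM, 6 of 40 carrier genes (15%) passed the test, against 11.6% of all 12832 tested genes (edgeR's quasi-likelihood test, Benjamini-Hochberg adjusted p under 0.05). SLC25A1, SLC25A23 and SLC25A29 rose (5.28% of all genes did), and SLC25A22, SLC25A38 and SLC25A43 fell (6.31% of all genes did). The groups did not overlap for 20 of the 40 (50%), against 49% of all genes. Of the 40, 7 (17.5%) were higher at 50 µM without overlap, against 24.4% of all genes, and 13 (32.5%) were lower, against 24.6%. The log2 fold change was below 0 in 28 of 40 members, against 49.6% of all genes, with a member median of -0.11 beside 0.0033 for all genes. The counts moved with single libraries: 6 members rose and 8 fell of 41 tested without 100 µM replicate 3, when 36.6% of all genes passed, 1 rose without any one of control replicates 2 and 3 and 50 µM replicates 2 and 3, and 0 fell without control replicate 2 or 3 or any library at 50 µM, fits in which 90 to 170 of all genes passed. Without control replicate 1, 5 fell, when 2842 of all genes passed. Without both libraries that stood apart, 7 rose and 18 fell of 41 tested members, when 57.4% of all genes passed.

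At 100 µM, 8 of 40 carrier genes (20%) passed the test against control, beside 21% of all genes. The same 3 genes rose as at 50 µM (10.7% of all genes rose), and SLC25A5, SLC25A13, SLC25A22, SLC25A32 and SLC25A38 fell (10.3% of all genes fell). The groups did not overlap for 16 of the 40 (40%), against 35.9% of all genes. Of the 40, 4 (10%) were higher at 100 µM without overlap, against 17.3% of all genes, and 12 (30%) were lower, against 18.6%. The log2 fold change was below 0 in 31 of 40, against 49.9% of all genes, with a member median of -0.16 beside 0.00087. The count of genes that fell was 10 without 100 µM replicate 3 (29.8% of all genes passed in that fit), 8 without control replicate 1 (3176 genes) and 1 without control replicate 2 or 3 (1118 and 1055 genes). Without both libraries that stood apart, 4 rose and 17 fell of 41 tested members, when 48.6% of all genes passed. SLC25A12, SLC25A43, SLC25A20, SLC25A6 and SLC25A10 missed the threshold at 100 µM with an adjusted p between 0.05 and 0.06, and all of these but SLC25A43 and SLC25A6 are named here after their values were seen. By the Wald test of DESeq2 they passed.

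Between the doses, 1 of 40 carrier genes (2.5%) passed the test, SLC25A32, against 4.15% of all genes. It was lower at 100 µM (1.89% of all genes were). By edgeR 0 carrier genes were higher at 100 µM than at 50 µM (2.25% of all genes were), and by DESeq2 0 were. Among the 31 members that passed in no comparison, 0 had an unadjusted p under 0.05 in that direction by edgeR, beside 4 lower. The share of all genes with such a p was not counted. The groups did not overlap for 7 members (17.5%), all lower at 100 µM, against 27.7% of all genes (14.4% lower and 13.3% higher). Without 100 µM replicate 3, 1 member was higher and 3 were lower, when 27.5% of all genes passed. Without any one of the other libraries except control replicate 1, 0 members passed.

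**Figure D2:**
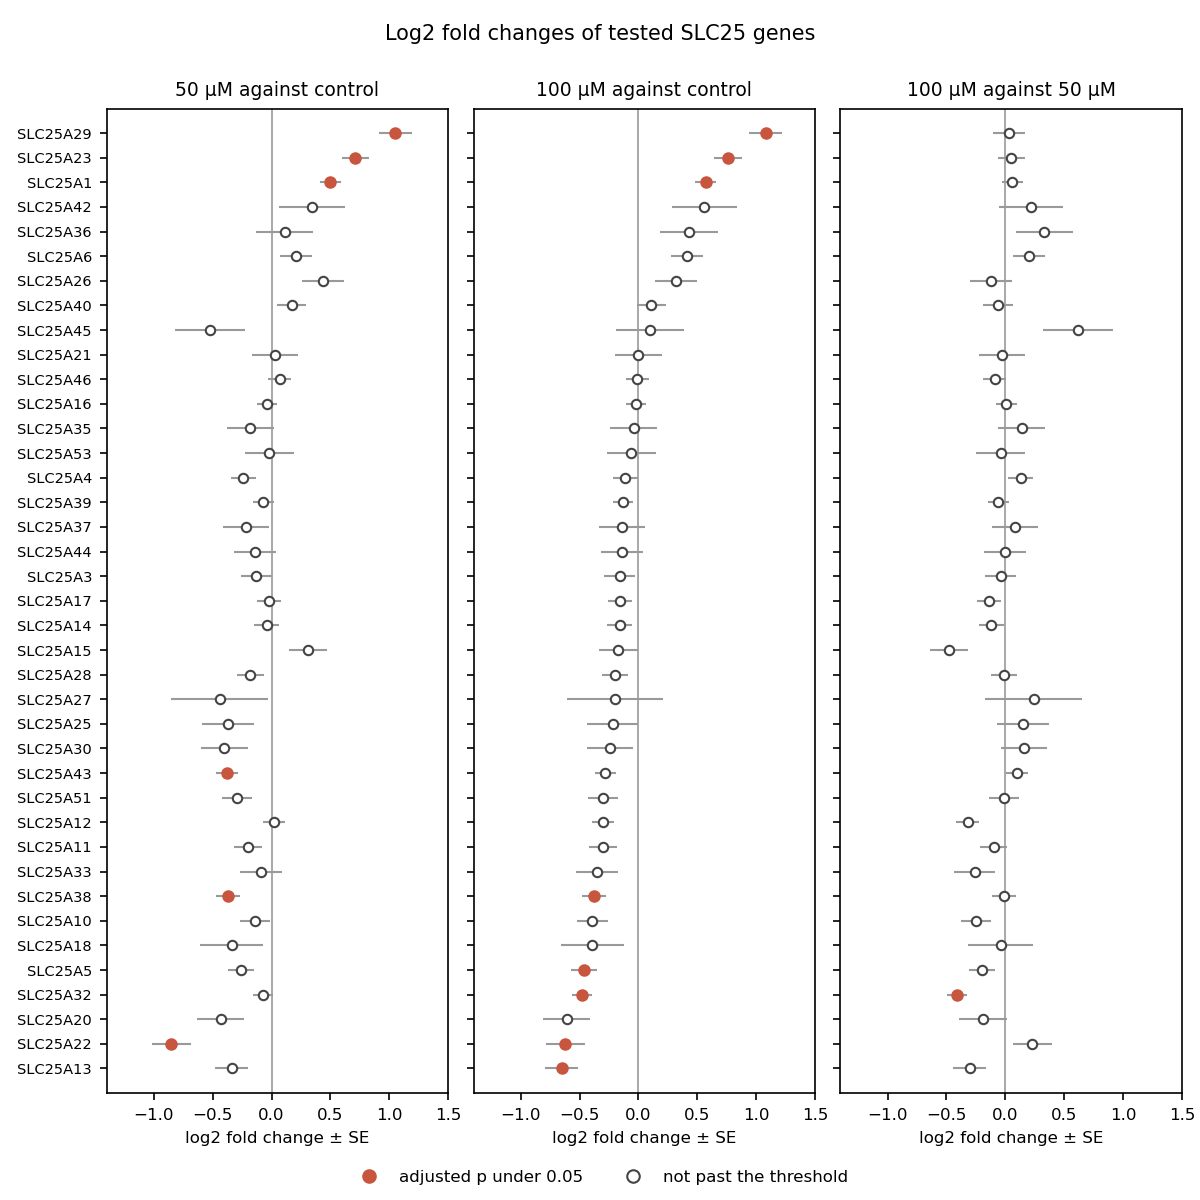
Log2 fold change with its standard error (edgeR, all 9 libraries) for 39 tested carrier genes at 50 µM against control, 100 µM against control and 100 µM against 50 µM, ordered by the middle comparison. Filled points passed the adjusted threshold of 0.05. SLC25A29, SLC25A23 and SLC25A1 lead on the positive side at both doses, and SLC25A32 is the filled point between the doses.

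Among the carriers of nucleotides, phosphate and ATP-Mg, 8 of 11 genes were tested, SLC25A23 rose at both doses and SLC25A5 fell at 100 µM. SLC25A23 (gene ID 79085, chr19:6436004-6459792 in the authors' table) takes up ATP-Mg against phosphate in a calcium-dependent way. It had 51.7, 42.5 and 38.9 CPM in control, 64.5, 77.6 and 75.1 CPM at 50 µM, and 74, 72.5 and 79 CPM at 100 µM. All libraries with quercetin lay above all control libraries, and the doses overlapped. The log2 fold change was 0.71 ± 0.116 at 50 µM (SE, 1.63-fold, adjusted p = 0.0107) and 0.76 ± 0.116 at 100 µM (1.69-fold, adjusted p = 0.00277). At 50 µM the gene no longer passed without control replicate 2 or 3 or 50 µM replicate 2 or 3 (adjusted p 0.0664, 0.0576, 0.0539 and 0.066). The gene's span shares 264 bases with SLC25A41, which had few counts. The TPM ratio of SLC25A23 to SLC25A25, another ATP-Mg/phosphate carrier, was 2.46, 3.17 and 2.75 at 50 µM and 2.35, 2.1 and 3.66 at 100 µM, against 2.29, 1.07 and 0.992 in control. Control replicate 1 lay inside the range at 100 µM.

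SLC25A5 (gene ID 292, chrX:119468444-119471396) exchanges cytosolic ADP for matrix ATP and was the most abundant carrier transcript. It had 769.6, 915 and 946 CPM in control, 737, 699 and 765 CPM at 50 µM, and 668, 693 and 556 CPM at 100 µM. The groups did not overlap in any pair, and 100 µM replicate 3 was the lowest library. It fell by 0.46 ± 0.11 on the log2 scale at 100 µM (1.37-fold lower, adjusted p = 0.0187), and the value at 50 µM was -0.26 ± 0.11 (adjusted p = 0.14). The fall at 100 µM passed without 100 µM replicate 3 (log2 fold change -0.36, adjusted p = 0.0119) but not without control replicate 2 or 3 (adjusted p 0.0831 and 0.0888), and at 50 µM the gene passed without 100 µM replicate 3 (adjusted p = 0.0312). SLC25A6, listed on chromosome Y in the pseudoautosomal region that X and Y share, is the third ADP/ATP carrier gene. It had 321, 309 and 313 TPM in control, 332, 361 and 356 TPM at 50 µM, and 354, 361 and 473 TPM at 100 µM. All libraries with quercetin lay above all control libraries in TPM, with a log2 fold change of 0.41 at 100 µM that missed the threshold (adjusted p = 0.0587). The TPM ratio of SLC25A5 to SLC25A6 was 3.61, 3.24 and 3.44 at 50 µM and 3.21, 3.17 and 1.8 at 100 µM, against 4.15, 5.04 and 5.03 in control. The ratio was lower in every library with quercetin than in every control library, and lowest in 100 µM replicate 3. SLC25A5 shares 4.57% of its 50-base words with other transcripts, mainly its own pseudogenes. SLC25A3 had 200.4, 241 and 255 TPM in control, 212, 206 and 197 TPM at 50 µM, and 221, 222 and 155 TPM at 100 µM, and did not pass in any comparison.

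**Figure D3:**
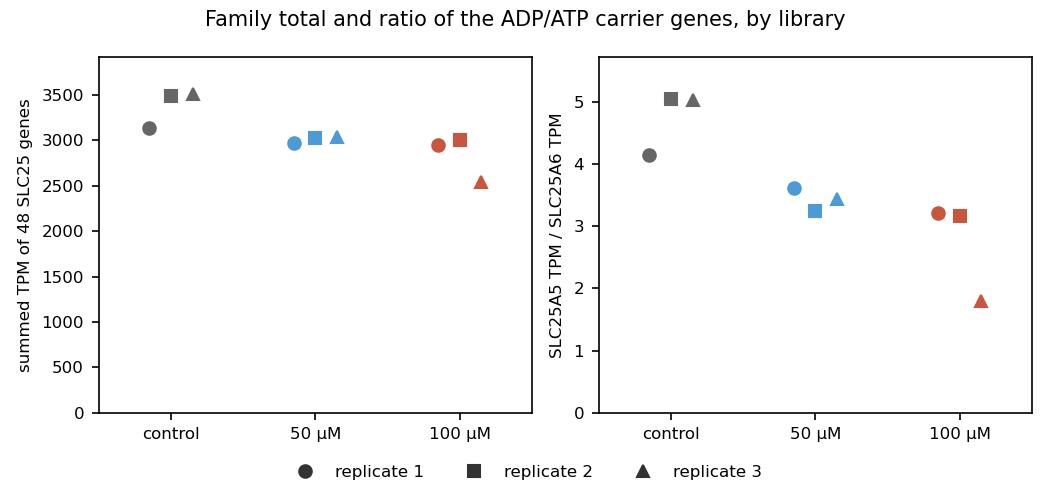
Left, summed TPM of the 48 carrier genes per library; right, TPM of SLC25A5 divided by that of SLC25A6 per library, with both axes starting at 0. The sum is 3140.2, 3485 and 3512 TPM in control, 2972, 3025 and 3039 TPM at 50 µM, and 2953, 3002 and 2539.5 TPM at 100 µM, so every quercetin library lies below every control library. SLC25A5 makes up 40.4% of the sum over all libraries, and without it the groups overlap.

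The family total in TPM was lower in each library with quercetin than in each control library, and 100 µM replicate 3 held the lowest. SLC25A5 made up 40.4% of this total over all libraries, and without SLC25A5 the sums of the groups overlapped. The mean of SLC25A5 was 1198 ± 27.8 TPM at 50 µM and 1042 ± 167 TPM at 100 µM, against 1489 ± 135 TPM in control (SD, n = 3 each).

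Among the carriers of di- and tricarboxylates, 4 of 4 genes were tested and SLC25A1 alone passed, higher at both doses. SLC25A1 (gene ID 6576, chr22:19175581-19178736) exports citrate, the source of cytosolic acetyl-CoA for fatty acid and sterol synthesis. It had 86.1, 93 and 89.7 CPM in control, 117, 129 and 135 CPM at 50 µM, and 121, 136 and 141 CPM at 100 µM. The lowest library with quercetin lay above the highest control library. The log2 fold change was 0.50 ± 0.0864 at 50 µM (1.42-fold, adjusted p = 0.0118) and 0.57 ± 0.0864 at 100 µM (1.48-fold, adjusted p = 0.00275). At 50 µM it did not pass without control replicate 2 or 3 or 50 µM replicate 2 or 3 (adjusted p 0.0594, 0.0644, 0.0547 and 0.0747). SLC25A10, the dicarboxylate carrier, had a log2 fold change of -0.39 at 100 µM (adjusted p = 0.0597). Its span shares 4629 bases with MRPL12, a gene of the mitochondrial ribosome at 308 TPM that fell by 0.46 at 100 µM (adjusted p = 0.00688), and no source used here says whether reads were counted by strand. Of the 50-base words of SLC25A10, 59.3% also occur in annotated transcripts of AC139530.2, so counts could be shared and its level is uncertain.

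Among the carriers of amino acids, 8 of 9 genes were tested. At 50 µM SLC25A29 rose and SLC25A22 and SLC25A38 fell, and at 100 µM SLC25A13 fell beside them. SLC25A29 (gene ID 123096, chr14:100277986-100306536) imports arginine, lysine and ornithine and was the member with the highest fold change. It had 12.2, 10.6 and 11.5 CPM in control, 21.8, 22.5 and 26.7 CPM at 50 µM, and 22.6, 28.9 and 21 CPM at 100 µM. Each library with quercetin was well above each control library, and the doses overlapped. The log2 fold change was 1.05 ± 0.14 at 50 µM (2.06-fold, adjusted p = 0.00509) and 1.08 ± 0.14 at 100 µM (2.11-fold, adjusted p = 0.00139), and it passed under each of the 17 alternatives run at both doses. The span of the gene in the authors' table shares 4803 bases with YY1, a transcription factor gene at 40.2 TPM with log2 fold changes of -0.0008 at 50 µM (adjusted p = 0.994) and 0.11 at 100 µM (adjusted p = 0.258).

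SLC25A22 (gene ID 79751, chr11:790475-798281) moves glutamate into the matrix with a proton. It had 31.4, 48 and 45.4 CPM in control, 20, 25.8 and 23.4 CPM at 50 µM, and 27, 29.8 and 24.2 CPM at 100 µM. Control replicate 1 was the lowest control library and lay just above the highest library at 100 µM. The gene fell by 0.85 ± 0.166 on the log2 scale at 50 µM (1.81-fold lower, adjusted p = 0.0172) and by 0.62 ± 0.165 at 100 µM (1.54-fold lower, adjusted p = 0.027). It did not pass at 50 µM without control replicate 2 or 3 (adjusted p 0.0882 and 0.0868) or without 50 µM replicate 1, 2 or 3 (0.0813, 0.0542 and 0.0844), nor at 100 µM without control replicate 2 or 3 (0.116 and 0.109) or 100 µM replicate 1 (0.0592). Its span shares 1649 bases with PANO1, which was at 1.18 TPM.

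SLC25A38 (gene ID 54977, chr3:39383353-39397351) carries glycine for the first step of haem synthesis. It had 36.3, 42.8 and 44.8 CPM in control, 32.3, 32.4 and 31.4 CPM at 50 µM, and 33.5, 33.5 and 28.5 CPM at 100 µM. All libraries with quercetin lay below all control libraries. The gene fell by 0.37 ± 0.103 at 50 µM (1.29-fold lower, adjusted p = 0.0478) and by 0.38 ± 0.103 at 100 µM (1.3-fold lower, adjusted p = 0.03). At 50 µM the call was lost without any one of control replicates 2 and 3 (adjusted p 0.19 and 0.195), 50 µM replicates 1, 2 and 3 (0.14, 0.128 and 0.165) and 100 µM replicates 1 and 2 (0.0597 and 0.0594). At 100 µM it was lost without control replicate 2 or 3 (0.119 and 0.134) or 50 µM replicate 1, 2 or 3 (0.0604, 0.055 and 0.0541). The call was also lost with a block for replicate number at both doses. Without the low-count filter it was lost at 50 µM, and with only the 2 groups compared at 100 µM.

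SLC25A13 (gene ID 10165, chr7:96113860-96323752) encodes citrin, the aspartate/glutamate exchanger of liver that serves the malate-aspartate shuttle and the urea cycle. It had 129.6, 156 and 157 CPM in control, 118, 118 and 113 CPM at 50 µM, and 107, 103 and 72.7 CPM at 100 µM. The groups did not overlap in any pair, and 100 µM replicate 3 was far below the other libraries. The gene fell by 0.65 ± 0.14 at 100 µM (1.56-fold lower, adjusted p = 0.0124), and the log2 fold change at 50 µM was -0.34 (adjusted p = 0.126). Without 100 µM replicate 3 the log2 fold change at 100 µM was -0.48 (adjusted p = 0.00214), and the gene passed at 50 µM too (-0.33, adjusted p = 0.00736). Without control replicate 2 or 3 it did not pass at 100 µM (adjusted p 0.059 and 0.0611). SLC25A12, the paralogue that dominates in muscle and brain, was less abundant, and the TPM ratio of SLC25A13 to SLC25A12 was 5.95, 5.29 and 5.63 at 50 µM and 6.89, 6.49 and 4.07 at 100 µM, against 6.35, 7.9 and 7.55 in control. At 100 µM the ratio lay within the control range in 2 of 3 libraries.

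**Figure D4:**
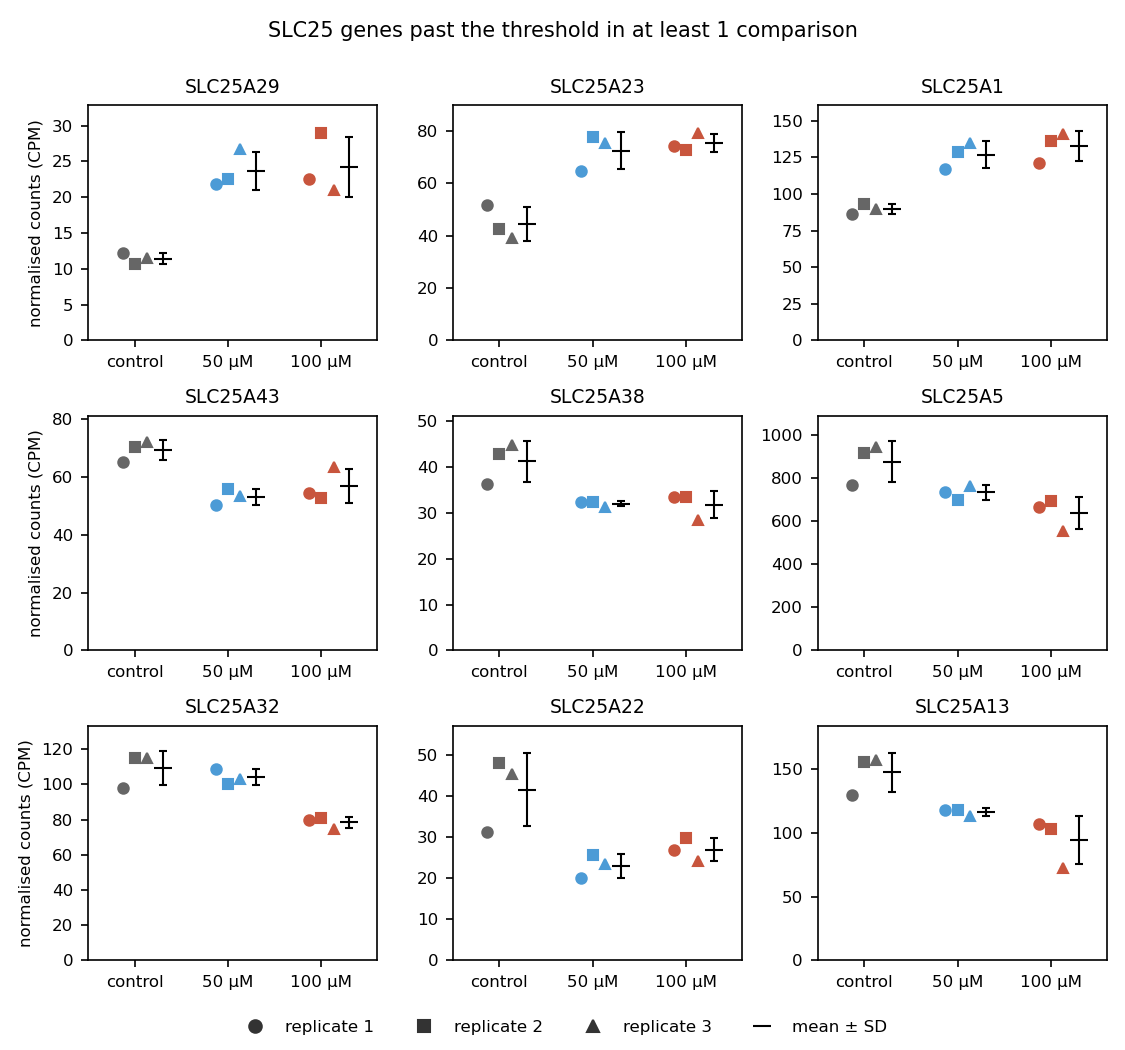
Normalised counts (CPM) per library of the 9 carrier genes past the threshold in at least 1 comparison, in control, at 50 µM and at 100 µM, with mean and SD beside the points and the axis starting at 0. The SLC25A29 libraries with quercetin sit between 21 and 28.9 CPM, above all control libraries, and SLC25A32 separates at 100 µM, where it lies between 74.9 and 80.8 CPM.

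Among the carriers of cofactors and acylcarnitine, 8 of 9 genes were tested and SLC25A32 alone passed, lower at 100 µM. SLC25A32 (gene ID 81034) brings folate into mitochondria and is also linked to flavin supply. It had 98.2, 115 and 115 CPM in control, 109, 100.2 and 103 CPM at 50 µM, and 79.7, 80.8 and 74.9 CPM at 100 µM. The 100 µM libraries lay below all others, while control and 50 µM overlapped. The gene fell by 0.48 ± 0.0838 at 100 µM against control (1.39-fold lower, adjusted p = 0.00507), and the log2 fold change at 50 µM was -0.07 (adjusted p = 0.598). Against control at 100 µM it passed under each of the 17 alternatives run. Against 50 µM its log2 fold change was -0.41 ± 0.0838 (1.33-fold lower, adjusted p = 0.0302). It did not pass there without control replicate 2 or 3 (adjusted p 0.0585 each), 50 µM replicate 1, 2 or 3 (0.156, 0.0976 and 0.121) or 100 µM replicate 1 or 2 (0.0803 and 0.0792). Of its 50-base words 87.9% also occur in annotated transcripts of other genes, mainly AC012213.5, so counts could be shared and its level is uncertain. SLC25A20, which exchanges acylcarnitine for carnitine on the way to fatty acid oxidation, had 11.8, 18.7 and 19.2 CPM in control, 12.7, 11.2 and 13.1 CPM at 50 µM, and 11, 12.8 and 8.7 CPM at 100 µM. Control replicate 1 lay within the range of both doses, and the log2 fold change at 100 µM was -0.61 (adjusted p = 0.0571).

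Among the carriers of iron and glutathione (4 of 4 tested) and the members that resemble uncoupling proteins (3 of 3 tested), 0 passed in any comparison. SLC25A39 had 209.6, 220.1 and 212 TPM in control, 191, 196 and 201 TPM at 50 µM, and 198, 208 and 156 TPM at 100 µM. The control libraries lay above all libraries with quercetin in TPM, by little, and the difference did not pass. In CPM the groups overlapped, with 146, 155 and 153 CPM in control and up to 151 CPM at 50 µM and 152 CPM at 100 µM. Among the 8 members with other roles or no settled substrate, 5 were tested and SLC25A43 fell at 50 µM. SLC25A43 (gene ID 203427, chrX:119399326-119454478) has no settled substrate and lies 13966 bases from SLC25A5. It had 65.3, 70.2 and 72.1 CPM in control, 50.2, 55.7 and 53.4 CPM at 50 µM, and 54.5, 52.7 and 63.4 CPM at 100 µM. No library with quercetin reached the lowest control library. The gene fell by 0.38 ± 0.0916 at 50 µM (1.3-fold lower, adjusted p = 0.0296), and the log2 fold change at 100 µM was -0.28 ± 0.0915 (adjusted p = 0.0539). At 50 µM it did not pass without control replicate 2 or 3 (adjusted p 0.128 and 0.134) or 50 µM replicate 1, 2 or 3 (0.123, 0.0756 and 0.117). At 100 µM the gene passed without control replicate 1 (0.0475) or 100 µM replicate 3 (0.00476).

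The 31 tested members that passed in no comparison had log2 fold changes from -0.52 (SLC25A45) to 0.44 (SLC25A26) at 50 µM and from -0.61 (SLC25A20) to 0.56 (SLC25A42) at 100 µM. Between the doses they ran from -0.48 (SLC25A15) to 0.62 (SLC25A45). In the authors' deposited table, at a q under 0.05, 5 members were higher and 5 lower at 50 µM of 47 with a q, beside 22.4% of all genes. At 100 µM that table gave 3 higher and 4 lower of 47, beside 11.2% of all genes, and between the doses 0 higher and 1 lower of 48, beside 5.86%. SLC25A5, SLC25A6, SLC25A13 and SLC25A26 passed there at 50 µM (DESeq2 q 0.0258, 0.0172, 0.00225 and 0.0117) but not by edgeR with all libraries. SLC25A38 passed there at 50 µM (q 0.00616) but not at 100 µM (q 0.0893).

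The carriers' surroundings were read from lists of genes with related roles. Among 3 tested of 5 relatives under other symbols (the uncoupling proteins and MTCH1 and MTCH2, outer-membrane members of the family), 0 passed. Of 13 genes of the TOM and TIM22 import route, 1 rose and 1 fell at each dose (11.6% of all genes passed at 50 µM and 21% at 100 µM), with a list median of 0.012 at 50 µM and -0.13 at 100 µM. TOMM70, a receptor that takes carriers from cytosolic chaperones, averaged 153 ± 7.37 CPM at 50 µM and 141 ± 9.76 CPM at 100 µM, against 197 ± 13.9 CPM in control (SD, n = 3 each). It fell by 0.37 at 50 µM (adjusted p = 0.0257) and by 0.49 at 100 µM (adjusted p = 0.00502). TOMM6 rose at 50 µM (0.33, adjusted p = 0.0339) and TOMM20, a presequence receptor, at 100 µM (0.30, adjusted p = 0.0487). Between the doses 0 of the 13 passed.

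Of 19 other mitochondrial transporters and pores, 0 passed at 50 µM and 4 fell at 100 µM, with none higher (10.3% of all genes fell and 10.7% rose at 100 µM). LETM1, a cation exchanger of the inner membrane, averaged 41.8 ± 8.36 CPM at 100 µM, against 60.7 ± 7.25 CPM in control (log2 fold change -0.54, adjusted p = 0.0286). SFXN2 and SFXN4, members of the sideroflexin family, fell by 0.53 (adjusted p = 0.0446) and 0.38 (adjusted p = 0.047), calls that were lost in 8 and 7 of the 9 fits without 1 library. SFXN1, the serine carrier, was the fourth. Between the doses SFXN3 alone passed, higher at 100 µM by 0.48 (adjusted p = 0.0386), where 4.15% of all genes passed.

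The list of 15 shuttle enzymes covered the malate-aspartate and citrate shuttles and also held GPD1 and GPD2 of the glycerol-3-phosphate shuttle. Of the 15, 2 rose and 2 fell at 50 µM and 1 rose and 6 fell at 100 µM, with list medians of -0.11 and -0.24. Of all genes 5.28% rose and 6.31% fell at 50 µM, and 10.7% rose and 10.3% fell at 100 µM. IDH2, the mitochondrial NADP-dependent isocitrate dehydrogenase, averaged 132 ± 3.89 CPM at 50 µM and 146 ± 5.14 CPM at 100 µM, against 78.1 ± 7.2 CPM in control. It rose by 0.76 at 50 µM (adjusted p = 0.00253) and by 0.90 at 100 µM (adjusted p = 0.000308). CS, citrate synthase, which makes the substrate of SLC25A1, fell by 0.63 at 50 µM (adjusted p = 0.00982), with 240 ± 1.66 CPM at 50 µM and 371 ± 31.6 CPM in control, and by 0.51 at 100 µM (adjusted p = 0.00771). GOT2, the matrix aspartate aminotransferase that supplies the aspartate exported by SLC25A13, fell by 0.57 at 50 µM (adjusted p = 0.0269). At 100 µM GPD1, the cytosolic glycerol-3-phosphate dehydrogenase, fell by 0.77 (adjusted p = 0.0254), ME2, the mitochondrial NAD-dependent malic enzyme, by 0.67 (adjusted p = 0.00105) and GOT2 by 0.63 (adjusted p = 0.0106). Between the doses ME2 was lower at 100 µM by 0.41 (adjusted p = 0.0277) and ME1, the cytosolic malic enzyme, by 0.38 (adjusted p = 0.0296).

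Of 20 tested enzymes that use substrates moved by carriers, 0 rose and 3 fell at 50 µM, beside 5.28% and 6.31% of all genes, and 2 rose and 6 fell at 100 µM, beside 10.7% and 10.3% of all genes, with list medians of -0.12 and -0.23. CPT1A, which makes the acylcarnitine carried by SLC25A20, averaged 84 ± 2.52 CPM at 50 µM and 85.3 ± 22.7 CPM at 100 µM, against 169 ± 37.3 CPM in control. It fell by 1.01 at 50 µM (adjusted p = 0.0191) and by 0.98 at 100 µM (adjusted p = 0.0111). ARG2, the mitochondrial arginase, whose substrate SLC25A29 carries, rose by 1.01 at 100 µM (adjusted p = 0.0326), at a low level of 2.14 ± 0.338 CPM, against 1.06 ± 0.137 CPM in control. FECH, the last enzyme of haem synthesis, was lower at 100 µM than at 50 µM by 0.43 (adjusted p = 0.0462), and SLC25A38 did not differ past the threshold in that comparison (adjusted p = 0.97). At 100 µM against control both were lower, FECH by 0.56 (adjusted p = 0.00561) and SLC25A38 by 0.38 (adjusted p = 0.03).

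With each library left out in turn, IDH2 passed in all 9 fits at both doses, and CS, FECH, ME2 and TOMM70 passed in all 9 at 100 µM against control. GOT2 and CPT1A at 100 µM were lost in 2 of 9 fits each and GPD1 in 4. TOMM6, TOMM70, CS, GOT2 and CPT1A at 50 µM and LETM1, SFXN1 and ARG2 at 100 µM were lost in 5 of 9 each. TOMM20 at 100 µM was lost in 7 of 9. Between the doses FECH and ME2 were lost in 6 of 9 fits each, and ME1 and SFXN3 in 7 of 9. At 50 µM the import genes ranged from 0 to 5 higher and 0 to 2 lower, the other transporters from 0 to 2 higher and 0 to 4 lower, the shuttle enzymes from 1 to 2 higher and 0 to 5 lower, and the substrate enzymes from 0 to 1 higher and 0 to 6 lower. At 100 µM the import genes ranged from 0 to 1 higher and 1 to 2 lower, the other transporters from 0 to 1 and 0 to 4, the shuttle enzymes from 1 to 2 and 2 to 7, and the substrate enzymes from 0 to 2 and 3 to 8.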

How the data were processed

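RNA-seq of 9 HCCLM3 samples was used from 1 table. The authors deposited expected counts (estimated reads per gene, not normalised), TPM for each library, and their own comparisons as log2 fold change, p-value and q-value, which per the file headers came from DESeq2. RSEM 1.2.12, HISAT2 2.0.4 and Bowtie2 2.2.5 and the build GRCh38.p13 are named per the submitters' processing notes, without roles. Per the labels' protocols, poly(A) RNA was selected and libraries were treated with duplex-specific nuclease, which can compress differences in abundance, and that protocol describes tissue, not cells. Of the deposited counts 26.84% were whole within 1e-06.

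Counts were rounded and filtered with filterByExpr (minimum count 10, minimum total 15, share 0.7), which removed 4660 genes holding 0.042% of the counts. The 12832 others were scaled by TMM and tested with edgeR's two-sided quasi-likelihood F test (edgeR 4.0.16, limma 3.58.1, R 4.3.3; robust, 1 mean per group over all 9 libraries), with Benjamini-Hochberg adjustment over all genes and a threshold of 0.05. The common dispersion was 0.0206, and each SE was derived from the log2 fold change and its F statistic (size of the change over root F). Alternatives were RLE and upper-quartile scaling, no filter, DESeq2 1.42.0, fits of 2 groups, a replicate block, limma on log2(TPM + 1), and fits without each library or without both that stood apart. The scripts were tested on simulated data.

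The members and lists were chosen with earlier results of these data known. Named were all members past the threshold, those below the filter, the 3 most abundant others, and up to 3 called genes per list and comparison with the largest change. Positions are those of the authors' table on GRCh38, and 50-base words were counted in GENCODE 29 transcripts. Values of genes that share a span with another gene may hold reads of that gene. Results of some genes that this rule or the lists take in are left out of the text.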

Additional observations from a re-analysis of the deposited data

How the results depend on the processing

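Counts are given for 50 µM against control, 100 µM against control and 100 µM against 50 µM. With the replicate block, 1 carrier gene was lower at 50 µM, 3 at 100 µM and 0 between the doses, and 427, 1672 and 109 genes passed in all. Deviations of same-numbered libraries from their group means had correlations between -0.0995 and -0.0306 for 50 µM and control, -0.464 to 0.276 for 100 µM and control, and -0.0502 to 0.0751 for the doses. Control replicate 1 and 100 µM replicate 3, which stood apart, had a correlation of 0.533. With such libraries in groups of 3 the correlations cannot settle whether the numbers pair the samples, and the labels do not say. Fits of only the 2 groups gave 5 higher and 6 lower members at 50 µM, 1 lower at 100 µM and 0 lower between the doses, with 4269, 1024 and 251 genes in all. DESeq2 gave 10 lower at 100 µM and 2 lower between the doses, with 2567 genes at 50 µM and 1382 between the doses. limma on log2(TPM + 1) gave 9 lower at 100 µM. Without control replicate 1 and 100 µM replicate 3 together, 7 members were higher and 18 lower at 50 µM, 17 lower at 100 µM, and 6 higher and 8 lower between the doses, with 7398, 6272 and 6105 genes in all; the 6, 8 and 1 members of the full fit were all among them. Leaving out each library gave 1 to 6 higher and 0 to 8 lower members at 50 µM, 3 to 4 and 1 to 10 at 100 µM, and 0 to 1 and 0 to 3 between the doses, with 90 to 4739, 1055 to 3856 and 43 to 3561 genes in all. Between the doses the sign turned for SLC25A23 (-0.02 to 0.11 over the fits without 1 library, below 0 without 50 µM replicate 1), SLC25A29 (-0.0038 with limma on TPM, -0.12 to 0.13 over the fits without 1 library, below 0 without 50 µM replicate 1 or 2 or 100 µM replicate 2) and SLC25A38 (-0.05 to 0.06 over those fits, above 0 without 100 µM replicate 3, and 0.07 without both libraries), none of which passed. Of the values of single genes under alternatives, 383 kept their direction and side of the threshold, 14 passed anew, 55 no longer passed and 7 turned. The causes were not tested. No scaling moved the median of all genes by over 0.1, and counts near the filter limit the 8 untested members.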
